A study of Mus musculus with 2 samples.

Results

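DNA methylation at 10 genes of the smooth-muscle program was compared between 2 populations of mouse adipose progenitors. The genes were Myocd and Srf, which encode transcriptional regulators, and Acta2, Tagln, Myh11, Cnn1, Cald1, Tpm1, Lmod1 and Des, which encode proteins of the contractile apparatus and its scaffold. They were chosen by name with earlier results of these data known, as were the lists and motifs below. Shares set beside those of all genes are therefore descriptions, not independent support. A region of the authors' list was assigned to a gene when it overlapped the RefSeq span of the gene or the 2 kb on either side. By this rule 17 of the 28141 listed regions belonged to these genes, and 5 of the 10 genes held at least 1. Both groups were adipose progenitors of C57BL/6 mice, isolated with magnetic beads from subcutaneous or visceral fat, grown, driven towards adipocytes with an adipogenic cocktail, then given dexamethasone at 1 µM. One group was sorted for CD137, a surface receptor used as a marker of beige precursors, and the other for PDGFRα (CD140), a growth factor receptor of mesenchymal progenitors. Each group was 1 bisulfite library, in which unconverted cytosines are read as methylated. The depot behind each library and the number of mice are not stated in the labels. No difference below has a replicate check, so no test was made. Read depth is unknown, and levels therefore carry no interval. In bulk DNA, a partial level in every cell and a mixture of methylated and unmethylated cells cannot be told apart. The table holds no expression values, so the identity of the sorted cells could not be checked against marker transcripts.

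Smooth-muscle cells contract through filaments of smooth-muscle actin and myosin, whose interaction is tuned by actin-binding proteins such as calponin, caldesmon and tropomyosin. Many of the genes for these proteins are switched on by serum response factor (SRF), which binds a DNA element called the CArG box, together with myocardin or its relatives MRTF-A and MRTF-B as coactivators. In adipose tissue this program marks the muscle cells of vessel walls, and parts of it are also used by fibroblast-like progenitors when their actin cytoskeleton is under tension.

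The listed regions of the contractile genes were all less methylated in the PDGFRα+ library, while those of the coactivator gene Myocd were mostly more methylated. Acta2, Myh11, Cald1 and Lmod1 held 13 regions, all lower in PDGFRα+, and Myocd held 4, of which 3 were higher. Over the 17 regions, 14 were lower in PDGFRα+, beside 77.7% of all listed regions, so the share of lower regions was near the background. The median difference (PDGFRα+ minus CD137+) was -0.512 over the 17 regions and -0.488 over all regions. In the 14 lower regions the level ran from 0.0793 to 0.502 in PDGFRα+ (median 0.269) and from 0.516 to 0.928 in CD137+ (median 0.814). These 2 ranges did not overlap, but the regions were listed as different and taken here for being lower in PDGFRα+. Over all 21870 lower regions the medians were 0.261 (PDGFRα+) and 0.820 (CD137+). There the ranges, 0.0008 to 0.755 and 0.181 to 0.988, did overlap. Cald1 alone gave 8 of the 17 regions. Without it 6 of 9 regions were lower and the median difference was -0.45.

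**Figure D1:**
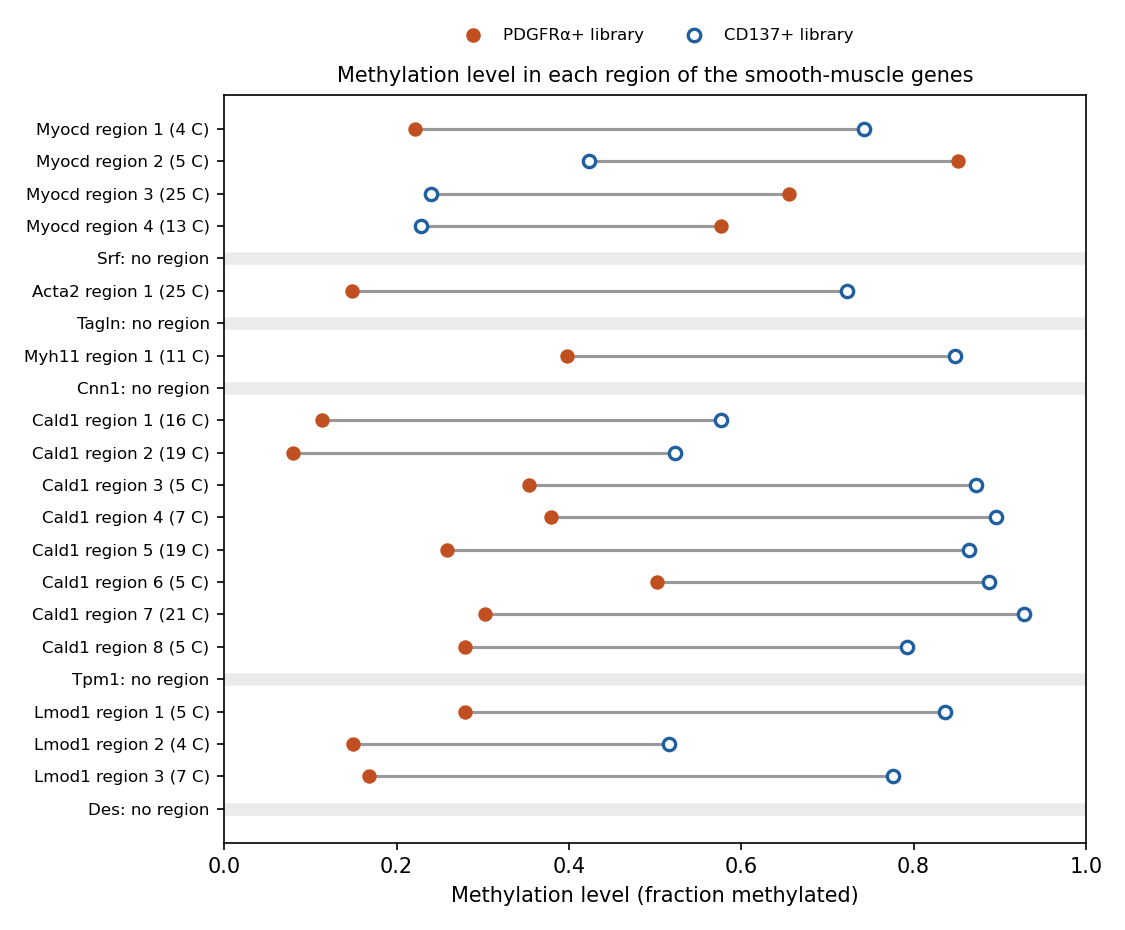
Methylation level (fraction, horizontal axis) in the PDGFRα+ library (filled) and the CD137+ library (open) for each of the 17 regions, with the number of cytosines (C) in brackets and a grey band for each gene without a region. The filled point lies to the left in 14 regions, and to the right in 3 regions of Myocd.

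Of the 10 genes, 5 held a region, beside 29.5% of 21883 protein-coding genes. A lower region was present at 5 of the 10, beside 24.0% of protein-coding genes, and a higher region at 1 of the 10, Myocd, beside 12.2%. Regions were more frequent at long genes. Of the 5 members longer than the median protein-coding span of 17.2 kb, 4 held a region, where 47.3% of such genes did. Of the 5 shorter members, only Acta2 did, where 11.7% of such genes did.

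At 3 of the contractile genes a lower region reached into the promoter window, taken as the 250 bases before a RefSeq start and the 50 bases after it. These were Acta2, Lmod1 and Cald1, out of 7 members with such a window, beside 0.715% of 17491 protein-coding genes. RefSeq sequences of these 3 promoters (GRCm38.p6, the assembly of mm10) are shown because they hold all or part of the listed region. They hold the 66 bases of the Lmod1 region, 161 of the 756 bases of the Acta2 region and 40 of the 344 of the Cald1 region. Each is the 250 bases before the start, 5′ to 3′ on the strand of the gene. Capitals mark the CG dinucleotides that lie wholly or partly in the listed region. The Lmod1 region begins at the G of its first marked CG.
Acta2 promoter, minus strand, chr19:34255374-34255623: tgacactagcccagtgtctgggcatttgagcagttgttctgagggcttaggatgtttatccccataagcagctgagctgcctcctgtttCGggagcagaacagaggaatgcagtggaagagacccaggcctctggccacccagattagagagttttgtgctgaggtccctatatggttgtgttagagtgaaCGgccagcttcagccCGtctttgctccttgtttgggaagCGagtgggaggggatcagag
Lmod1 promoter, plus strand, chr1:135324563-135324812: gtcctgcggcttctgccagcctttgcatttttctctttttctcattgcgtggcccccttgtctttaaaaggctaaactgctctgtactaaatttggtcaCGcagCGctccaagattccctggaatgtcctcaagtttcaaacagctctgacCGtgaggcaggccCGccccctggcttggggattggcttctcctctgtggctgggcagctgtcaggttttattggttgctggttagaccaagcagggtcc
Cald1 promoter, plus strand, chr6:34598254-34598503: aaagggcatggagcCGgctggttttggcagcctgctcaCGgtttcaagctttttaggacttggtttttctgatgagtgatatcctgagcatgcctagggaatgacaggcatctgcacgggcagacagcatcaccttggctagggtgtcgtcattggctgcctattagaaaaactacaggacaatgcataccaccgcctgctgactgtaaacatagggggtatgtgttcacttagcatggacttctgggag

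In the Acta2 and Lmod1 sequences 4 CG dinucleotides each lay wholly or partly in the region, and in the Cald1 sequence 2 did. The 3 whole windows held 6 (Acta2), 7 (Lmod1) and 6 (Cald1) in 300 bases, whereas the windows of Srf and Tpm1, which no region touched, held 25 and 27. The windows of Des (11), Cnn1 (6) and the second start of Cald1 (5) were also free of regions, so the CG number did not separate the members. Over all genes the median was likewise 6 in the 467 windows that a region touched and 7 in the other 32384.

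Acta2, the gene of smooth-muscle alpha-actin and the usual marker of smooth muscle and myofibroblasts, held 1 region, and it covered the start of the gene. The region lay at chr19:34254779-34255534, inside the gene span (chr19:34240336-34255585, minus strand), and ran from 161 bases before the RefSeq start to 594 bases after it. Its level was 0.148 (PDGFRα+) and 0.723 (CD137+), a difference of -0.575 over 25 cytosines. It was the longest of the 17 regions, with 756 bases, and lies also within 2 kb of the long noncoding RNA gene Gm31355. In the authors' deposited table its area statistic was -209, second in size among the 17 regions to the -215 of a Cald1 region. Within 10 kb lay 1 further region, 5831 bases outside the gene and within Stambpl1, with levels of 0.485 (PDGFRα+) and 0.888 (CD137+).

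Lmod1 encodes leiomodin, which nucleates actin filaments in smooth muscle. It held 3 regions, 2 of them just before the start and 1 deep in the gene (span chr1:135324813-135368065, plus strand). The region nearest the start, chr1:135324663-135324728, lay 150 to 85 bases before it and had levels of 0.149 (PDGFRα+) and 0.516 (CD137+) over 4 cytosines. The region before that, chr1:135323718-135323903, ended 910 bases before the start and had levels of 0.280 and 0.837. Both also lie within 2 kb of Gm41956, a long noncoding RNA gene. The third, chr1:135358852-135359043, lay 34.0 kb into the gene and had levels of 0.168 (PDGFRα+) and 0.776 (CD137+). The difference was thus smallest at the start (-0.368) and larger on either side of it (-0.557 and -0.608). No other region lay within 50 kb of Lmod1.

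Cald1, the gene of the actin-binding regulator caldesmon, held 8 regions along its 177 kb (chr6:34598495-34775469, plus strand), all lower in PDGFRα+. Of all protein-coding genes, whatever their span, 1.59% (348) held 8 regions or more, and in 72 of those 348 every region was lower. With regions of the flanks counted but only the span as length, Cald1 held 4.52 regions per 100 kb. By the same count Lmod1 had 6.94, Acta2 6.56, Myocd 4.15 and Myh11 1.02. These values are raised where regions lie in a flank, as at Lmod1, Cald1 and Myocd, and so do not rank the genes by density within the span. The first region, chr6:34597950-34598293, lay 554 to 211 bases before the first start and shared 40 bases with the promoter window. Its level was 0.114 (PDGFRα+) and 0.577 (CD137+) over 16 cytosines. The second, chr6:34599448-34599747, began 944 bases after the start and had levels of 0.0793 and 0.523 over 19 cytosines. These were the 2 lowest PDGFRα+ levels among the 17 regions. Further in, CD137+ levels were between 0.792 and 0.928 and PDGFRα+ levels between 0.258 and 0.502. One of these regions, chr6:34708233-34708340, ended 1104 bases before the second RefSeq start of the gene and had levels of 0.379 and 0.896. Another, chr6:34721061-34721361, lies also within the long noncoding RNA gene Gm38787 and had levels of 0.258 and 0.864. The widest difference, -0.625, was at chr6:34749369-34750014, over 21 cytosines, with levels of 0.303 and 0.928. The narrowest, -0.385, was at the neighbouring region chr6:34746333-34746529, with levels of 0.502 and 0.887.

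The 2 Cald1 regions on either side of its first start and the Lmod1 region nearest its start, set apart after their values were seen, had the 3 lowest CD137+ levels among the 14 lower regions of the members (0.516, 0.523 and 0.577). Only 2.94% of all 21870 lower regions had a CD137+ level of 0.577 or less. The Acta2 region, which spans its start, had 0.723.

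Myh11 encodes the smooth-muscle myosin heavy chain, the most specific marker of mature smooth muscle. Across its 97.7 kb (chr16:14194527-14292188) it held 1 region, chr16:14263414-14263543, inside the gene and 28.6 kb from the upper-coordinate end. The levels were 0.398 (PDGFRα+) and 0.848 (CD137+) over 11 cytosines, a difference of -0.45. The nearest other region was 159166 bases away, in Abcc1.

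**Figure D2:**
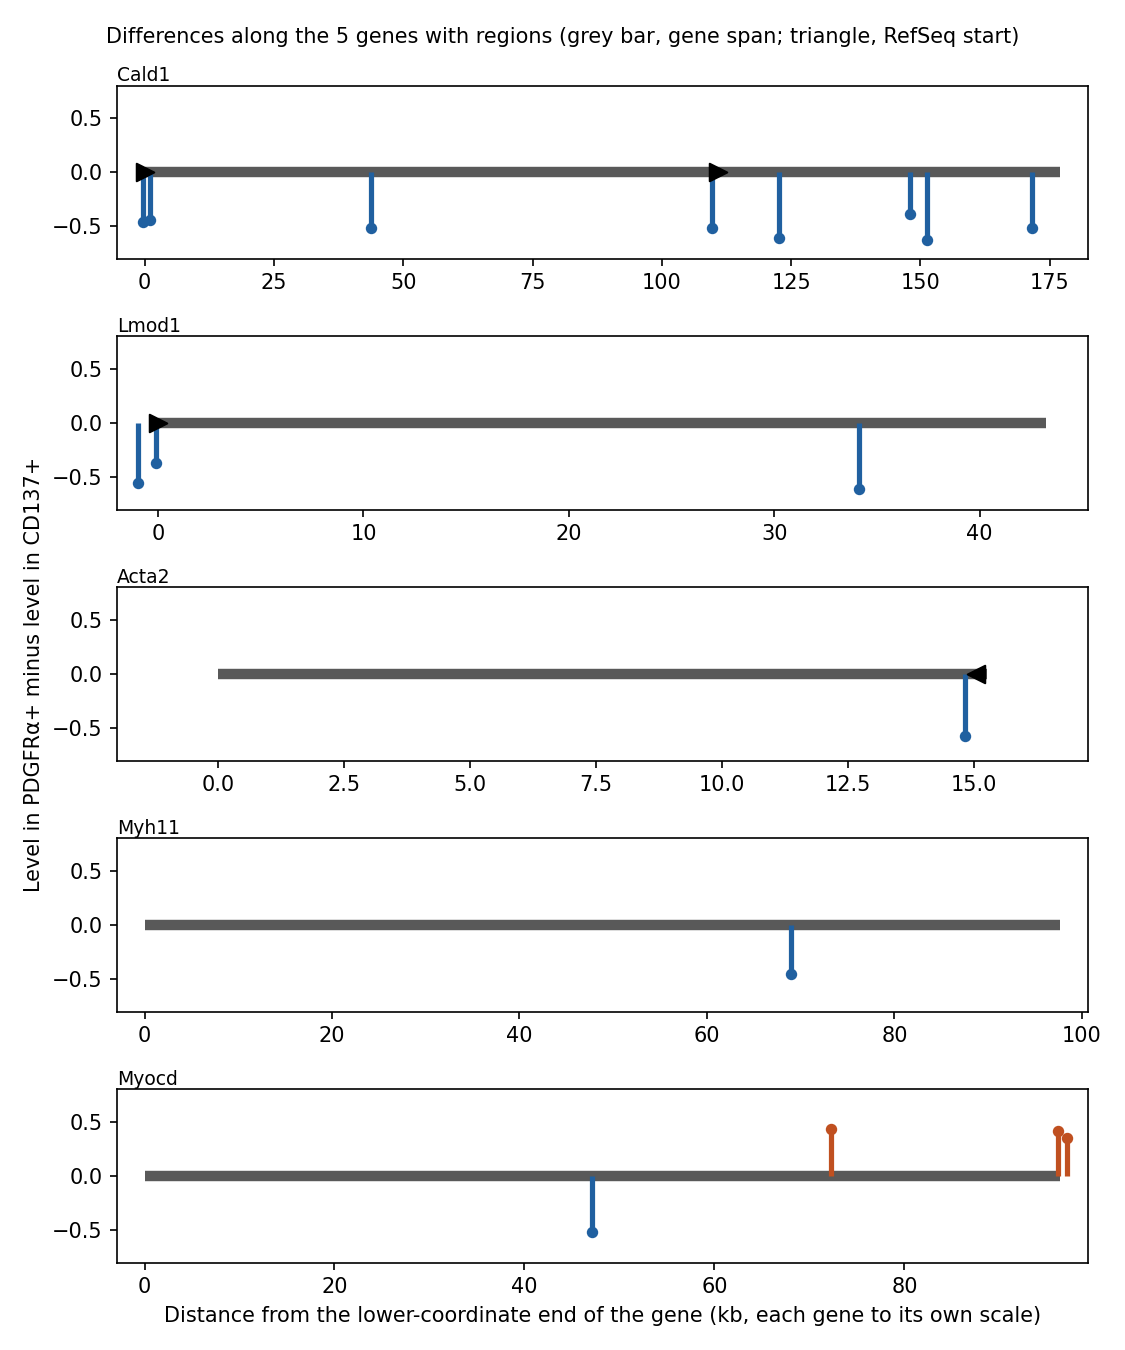
Difference in level (PDGFRα+ minus CD137+, vertical axis) at each region along the 5 genes that held any, against the distance in kb from the lower-coordinate end of the gene. Bars below 0 are regions lower in PDGFRα+; triangles are RefSeq starts pointing in the direction of transcription, drawn for Cald1, Lmod1 and Acta2, and the 2 higher regions at the upper end of Myocd stand at 0.416 and 0.349.

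Myocd encodes myocardin, the coactivator that switches on the contractile genes in smooth and cardiac muscle, and it was the member with regions in both directions. The gene spans 96.4 kb (chr11:65173608-65269989). At its upper-coordinate end lay 2 regions rich in cytosines that were higher in PDGFRα+. The first, chr11:65269631-65269951, ended 38 bases inside the span and had levels of 0.656 (PDGFRα+) and 0.240 (CD137+) over 25 cytosines. The other, chr11:65270609-65270735, lay 620 bases outside the span and had levels of 0.577 and 0.228 over 13 cytosines. They held 7.79 and 10.2 cytosines per 100 bases, a density that 16.1% and 6.29% of all listed regions reached, against a median of 4.62. Both also lie at or within 2 kb of the long noncoding RNA gene Gm30586. In the authors' deposited table the area statistic of the first was 161, the largest positive value among the 17 regions. The third higher region, chr11:65245880-65245948, lay 24.0 kb from the same end and had levels of 0.852 and 0.423 over 5 cytosines. The only lower region, chr11:65220625-65220807, lay in the middle of the gene and had levels of 0.221 (PDGFRα+) and 0.742 (CD137+) over 4 cytosines.

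The 3 higher regions of Myocd differed by 0.349 to 0.429, less than the median of 0.507 over all higher regions. At the 2 end regions the PDGFRα+ levels were intermediate. Of all 6271 higher regions, 4.03% had a PDGFRα+ level of 0.656 or less, a cutoff taken from these end regions themselves. The median over all higher regions was 0.879.

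**Figure D3:**
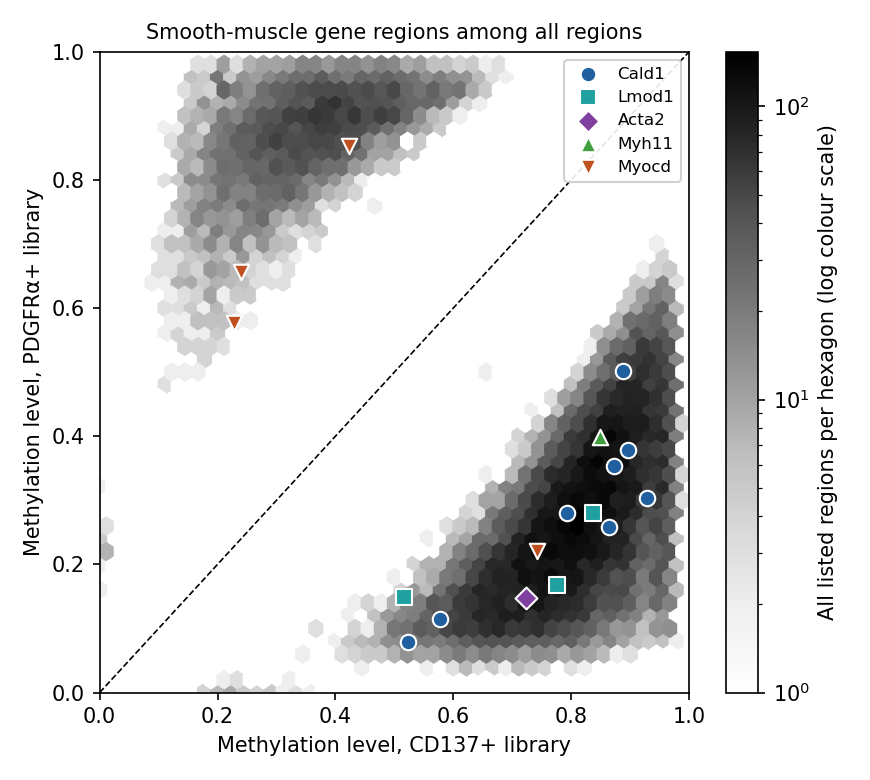
Level in the PDGFRα+ library (vertical axis) against level in the CD137+ library (horizontal axis) for the 17 regions (coloured symbols by gene) over all 28141 listed regions (grey hexagons, log colour scale), with a dashed line of equal levels. The Acta2, Lmod1, Cald1 and Myh11 symbols lie below the line, and 2 of the 3 Myocd symbols above it lie at PDGFRα+ levels of 0.577 and 0.656, under most of the other higher regions.

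Srf, the gene of the DNA-binding partner of myocardin, held no region, and the nearest one was 48627 bases away, in Dnph1. The other members without a region were Tagln (transgelin, an early smooth-muscle marker), Cnn1 (calponin), Tpm1 (tropomyosin) and Des (desmin, the muscle intermediate filament). Their nearest regions were 11732, 16593, 15488 and 13942 bases away. The one near Tagln, within Pcsk7, had levels of 0.175 (PDGFRα+) and 0.841 (CD137+), and the one near Tpm1 had 0.403 and 0.928. Those near Cnn1 and Des went the other way, with levels of 0.914 and 0.872 in PDGFRα+ and 0.386 and 0.261 in CD137+. No region of any of these 5 genes lay between 2 and 10 kb. Since only regions called as different are listed, the levels at these genes are not known, and the absence of a region does not show equal methylation.

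Motifs were searched in the 8 RefSeq promoter windows of the 7 members that have one, on both strands. The CArG box is CC, then a run of A and T, then GG, and it occurred in 1.63% of all 32851 windows. Among the members it was found only in Srf, as CCATATAAGG and CCATAAAAGG, 82 and 62 bases before the start. With exactly 1 G or C allowed in the middle, it occurred in 8.50% of windows and, among the members, only in Acta2. There the matches were CCCTATATGG and CCTTGTTTGG, whose first bases lie 84 and 34 bases before the start, and both lie inside the lower region. The second motif searched was GGAATG, or CATTCC on the other strand, the core of the element bound by TEAD factors. TEAD1 is named in the title of the study. The motif occurred in 14.7% of all windows and in 17.1% of the 467 windows that a region touched. Among the members it occurred in 4 of 8 windows, those of Acta2 (first base 146 bases before the start), Lmod1 (130), Cald1 (153, first start) and Tpm1 (56). The first 3 are the windows touched by a region. In Acta2 and Lmod1 the match lies inside the region, and in Cald1 it lies outside it. The motifs do not overlap each other, and a match is a description of the sequence, not evidence of binding.

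Other smooth-muscle contractile genes showed the same prevailing direction, lower in PDGFRα+, which also prevailed at all protein-coding genes. Of 42 genes in the contractile list, 8 of them members, 29 (69.0%) held a region, beside 29.5% of all protein-coding genes. Most regions were lower in 26 of these 29 and higher in 3, where 4545 of the 6453 protein-coding genes with a region were mostly lower and 1393 mostly higher. The list held 126 regions, of which 109 (86.5%) were lower, with a median difference of -0.514. The regions at all protein-coding genes had a median of -0.482, and 74.7% were lower. Without the members the counts were 25 of 34 genes, 22 mostly lower and 3 mostly higher, and 96 of 113 regions lower. Genes of the list are long, and 22 of the 28 above the median span held a region, beside 47.3% of all protein-coding genes above it. The kinase that phosphorylates myosin light chain, Mylk, was lower in 5 of 5 regions, with mean levels of 0.166 (PDGFRα+) and 0.703 (CD137+). The light chain gene Myl9 held 1 region, 1279 to 633 bases before its start, with levels of 0.285 and 0.786 over 27 cytosines. Tpm2, a tropomyosin gene, held 1 region that began 168 bases after its start, with levels of 0.221 and 0.661.

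The 5 further genes of the contractile list with the most regions were all mostly lower. The calcium channel gene Cacna1c was lower in 9 of 9 regions, with mean levels of 0.277 (PDGFRα+) and 0.798 (CD137+). The cGMP-dependent kinase gene Prkg1 was lower in 12 of 14 regions (0.357 and 0.731). Lpp, a focal adhesion gene of 599 kb, was lower in 15 of 19 regions (0.449 and 0.751). The RNA-binding protein gene Rbpms was lower in 9 of 10 (0.405 and 0.803), and Filip1l in 7 of 11 (0.448 and 0.676). The 3 exceptions in the list were Vcl (vinculin), higher in its only region (0.847 and 0.155), Nexn, higher in its only region (0.908 and 0.447), and the integrin gene Itga8, higher in 2 of 3.

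Of 40 regulators around SRF, 2 of them members, 25 (62.5%) held a region, beside 29.5% of all protein-coding genes, and 22 of the 28 above the median span did, beside 47.3%. Of the 25, 17 were mostly lower, 7 mostly higher and 1 even. Of their 78 regions 65.4% were lower, not far from the 74.7% at all protein-coding genes, and the median difference was -0.446 beside -0.482. Within the myocardin family itself the directions differed. Mrtfa, the gene of MRTF-A, was lower in 7 of 8 regions, with mean levels of 0.271 (PDGFRα+) and 0.688 (CD137+). One of these regions began 971 bases after its outer RefSeq start and had levels of 0.186 and 0.728. Its only higher region spanned the inner RefSeq start, from 162 bases before to 128 bases after it, with levels of 0.681 and 0.196 over 8 cytosines. Mrtfb, the gene of MRTF-B, named here for its family, was higher in 3 of 3 regions, with PDGFRα+ levels of 0.895, 0.895 and 0.893 and CD137+ levels of 0.524, 0.506 and 0.496. The first 2 lay 1017 to 1192 bases after an inner start and the third 14645 bases after it.

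Other regulators also fell on either side. Mef2c, a muscle transcription factor gene, was higher in 6 of 7 regions (mean levels 0.782 and 0.429). Csrp2, which encodes a LIM protein of smooth muscle, was lower in 5 of 5 (0.274 and 0.771), and its 2 largest regions, with 35 and 31 cytosines, had levels of 0.357 and 0.142 in PDGFRα+. Smad3, a transducer of TGF-beta signals, was lower in 4 of 7 regions (0.514 and 0.557) and Elk3, an ETS factor gene that acts with SRF, in 4 of 6 (0.467 and 0.634).

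Marker genes of other cells that share parts of the program were counted in the same way. Of 20 mural cell genes, 6 (30.0%) held a region, close to the 29.5% of all protein-coding genes. Of the 6, 2 were mostly lower, 3 mostly higher and 1 even. Of their 18 regions 7 (38.9%) were lower, beside 74.7% at all protein-coding genes, and the median difference was 0.390 beside -0.482, but 13 of the 18 lay at Ebf1 and Tbx18. The pericyte marker Rgs5 had levels of 0.103 (PDGFRα+) and 0.591 (CD137+) in its only region, and Notch3, a receptor of mural cells, was lower in 2 of 2 (mean 0.582 and 0.928). The potassium channel gene Kcnj8 had 0.821 and 0.230 and Ndufa4l2 had 0.873 and 0.278 in their only regions, Tbx18, a mural transcription factor gene, was higher in 5 of 5 (0.849 and 0.412), and Ebf1 was split 4 and 4. Of 33 striated muscle genes, 12 (36.4%) held a region, 9 mostly lower, 2 mostly higher and 1 even, and 11 of their 16 regions (68.8%) were lower. Both shares are near those of all protein-coding genes (29.5% and 74.7%). Neb, the nebulin gene, was higher in 3 of 3 regions (0.895 and 0.397), Ryr1 was lower in 2 of 2 (0.356 and 0.780), Ttn was split 1 and 1, and Tnnt1 was lower in its only region (0.386 and 0.942). Tnnt1 and Tnnt2 are named from 9 genes with 1 region each, by their area statistic, and the other 7 were lower. Tnnt2, the cardiac troponin T gene, was higher, with levels of 0.203 (PDGFRα+) and 0.0161 (CD137+). A different content of mural or muscle cells in the 2 libraries was not tested.

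**Figure D4:**
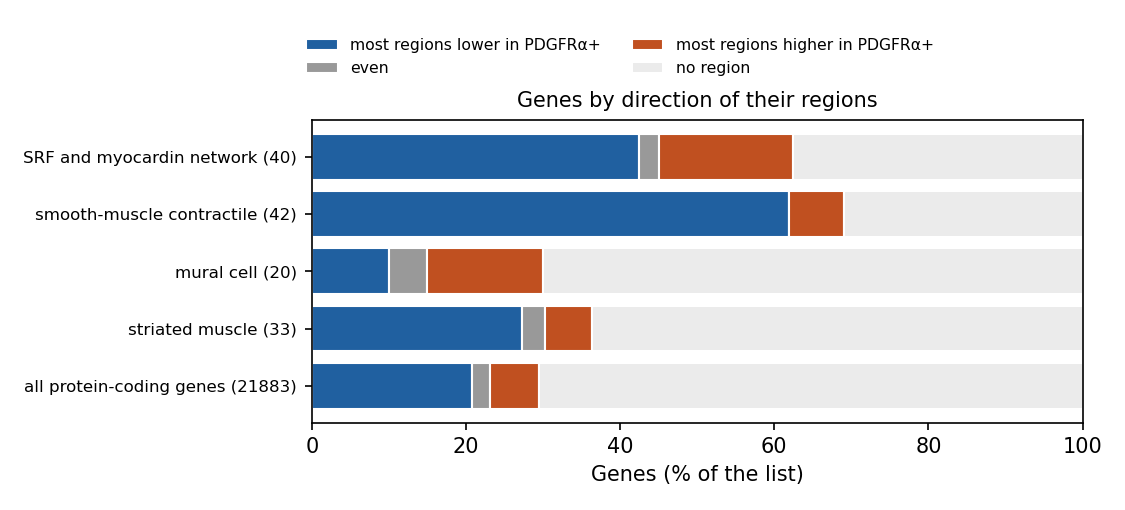
Share of genes (horizontal axis, % of the list) with most regions lower in PDGFRα+, evenly split, mostly higher, or with no region, for 4 lists and for all protein-coding genes, with the number of genes in brackets. In the contractile list 26 of 42 genes were mostly lower and 3 mostly higher; in the mural list the counts were 2 and 3 of 20.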

How the data were processed

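Whole-genome bisulfite sequencing of 1 CD137+ and 1 PDGFRα+ library was summarised by the authors in a table of differentially methylated regions. Per the file headers, each library has a column with its methylation level, deposited as a fraction (0 to 1). The area statistic and the difference were deposited as scores, and the difference was recomputed here as PDGFRα+ minus CD137+. Coordinates are on mm10, as the submitters' processing notes name it. The region caller, its thresholds and the coverage are not stated in the labels or the file. Of 88 regions wholly inside a RefSeq promoter window, 88 began and ended on a CpG cytosine of either strand, with starts counted from 0. None listed more cytosines than its CpGs have on both strands together, and in 43 of the 88 the numbers were equal. Starts are therefore printed with 1 added. Cytosines of both strands were taken as counted, though not every one in each region.

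Gene spans, promoter windows and start sites came from RefSeq on GRCm38.p6. Exons were not used here. Promoter windows existed for 7 of the 10 members, not for Myocd, Tagln and Myh11. Members, lists and motifs were chosen with earlier results of these data known. All list symbols matched a gene. Named besides the members were the 5 genes with the most regions in each of 4 lists, with ties broken by the larger absolute area statistic. Mrtfb, Ndufa4l2, Mylk, Myl9, Tpm2, Vcl, Nexn and Itga8 were named after their values were seen. Alternatives covered flanks of 0 and 10 kb, a minimum difference of 0.5, at least 10 cytosines, larger area statistics, overlap of at least 50% of the region and weighting by cytosines. The overlap search, checked against a brute-force search over 300 genes, gave 0 differences. Python 3.11.15, numpy 2.4.6, pandas 2.3.3 and matplotlib 3.10.9 were used.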

Additional observations from a re-analysis of the deposited data

How the results depend on the processing

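The number of members with a region was 5 with no flank, with 10 kb and with the overlap rule, and 4 with each stricter filter. The share of all protein-coding genes with a region, 29.5% in the main setting, moved as well. It was 26.8% with no flank, 38.4% with 10 kb and 29.3% with the overlap rule. At a minimum difference of 0.5 it was 22.0%, with at least 10 cytosines 18.7%, and with larger area statistics 19.5%. Myh11 was lost at a minimum difference of 0.5, and Lmod1 at 10 cytosines or with only area statistics above the median. At a minimum difference of 0.5 the regions lower in PDGFRα+ numbered 9 and the higher ones 0, so Myocd then kept only its lower region. With at least 10 cytosines, and with larger area statistics, 6 lower and 2 higher regions were left. The median difference of -0.512 was -0.517 without a flank, -0.488 with 10 kb, -0.557 at a minimum difference of 0.5, and -0.457 with at least 10 cytosines and with larger area statistics. Weighted by cytosines, the mean was -0.327. Mural cell genes with a region went from 6 to 11 with 10 kb. Striated muscle genes with a region went from 12 to 21 with 10 kb and to 5 at a minimum difference of 0.5. Beside these 2 lists, the share of all protein-coding genes went from 29.5% to 38.4% and to 22.0% under the same settings. The contractile and the SRF and myocardin lists stayed within 1.5 times their count under all 6 alternatives. With 1 library per group and unknown depth, the error of a level is unknown, and regions of 4 or 5 cytosines, such as that nearest the Lmod1 start, rest on the fewest sites. No paired analysis was possible because each group had 1 library.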
